A study of Rattus norvegicus with 25 samples.

Results

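Oxytocin and vasopressin are a pair of closely related peptides made mainly, but not only, by neurons of the hypothalamus and carried along axons to the limbic brain. The 6 genes described here cover the steps of their action. They are the ligand precursors Oxt and Avp, the receptors Oxtr and Avpr1a, the release gene Cd38, and LNPEP, which encodes oxytocinase. They were taken by gene name, ignoring case, and each matched 1 of the 26312 gene identifiers measured. LNPEP was chosen by its measured differences between groups in the basolateral amygdala (BLA) and the dentate gyrus (DG), so its values are given as a description and carry no test. The other 5 genes belong to the system by function.

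Left-hemisphere BLA and dorsal DG tissue came from adult male wild-type Sprague-Dawley rats, and bulk RNA was sequenced in 25 libraries from 14 animals, 11 of them with both regions. Stress-exposed rats had been immobilized for 3 h with predator scent, and controls had a cage change and otherwise stayed in the home cage, with little disturbance, until the same behavior tests. Brains were collected on day 9. The stress-low rats had composite anxiety-like behavior scores of 0 to 2, the stress-high rats scored 13 to 15, and the controls scored 0 to 6, so the stress groups were the ends of a range and not random draws. Each library was 1 region of 1 animal, made from 7 to 9 punches of 0.75 mm through sections of 200 µm. In such tissue, fewer cells of a type and less RNA per cell cannot be told apart.

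The BLA gave 7 control, 3 stress-low and 3 stress-high libraries, and the DG gave 6, 3 and 3. For the BLA library of animal 35 the name says control and the treatment field says stress, and it was taken as control. On the first principal component, which held 21.1% (BLA) and 29.1% (DG) of the variance, 1 control library per region stood far from the others, animal 2 in the BLA at 46.4 and animal 35 in the DG at 56.0. Both were left out of the comparisons. That left 6, 3 and 3 BLA libraries and 5, 3 and 3 DG libraries. Total counts were 12709493 to 22801247 in the BLA and 11656439 to 19477932 in the DG. Markers of dentate granule neurons separated the regions, with a summed level of 443 to 732 TPM in the DG, where TPM is abundance per transcript length scaled to a fixed library sum, and 103 to 166 TPM in the BLA, although Calb1 of this list was higher in the BLA (median 135 TPM against 105 TPM). The list for BLA glutamatergic neurons did not mark the BLA as a sum, with 1021 to 1465 TPM there and 1698 to 2207 TPM in the DG, where its gene Slc17a7 was at a median of 1827 TPM against 1054 TPM, while its gene Etv1 was higher in the BLA (median 108 TPM against 9.62 TPM). Markers of the neighboring central amygdala and striatum summed to 279 to 857 TPM in BLA controls, 275 to 836 TPM in stress-low and 383 to 474 TPM in stress-high libraries, and their part in the BLA values below was not tested.

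Oxytocin acts on the oxytocin receptor Oxtr, and vasopressin acts in the brain mainly on the V1a receptor Avpr1a. Both receptors couple to Gq proteins, which release calcium from internal stores. CD38 is an ADP-ribosyl cyclase whose products raise calcium in oxytocin neurons and support release of the peptide. Oxytocinase, also called insulin-regulated aminopeptidase, is a membrane enzyme that cleaves oxytocin, vasopressin and other short peptides at the amino terminus, and it travels to the cell surface with the insulin-responsive glucose transporter.

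Oxt and Avp lie next to each other on the same chromosome and are transcribed toward each other. Their promoters are shown beside that of Lnpep because the ligands were among the least and LNPEP the most abundant members in these tissues. The sequences are the 100 bases before the RefSeq start in GRCr8, on the strand of each gene, with CG pairs in capitals. They lie at chr3:138235654-138235753 on the plus strand for Oxt, chr3:138248523-138248622 on the minus strand for Avp and chr1:67027611-67027710 on the minus strand for Lnpep.
Oxt: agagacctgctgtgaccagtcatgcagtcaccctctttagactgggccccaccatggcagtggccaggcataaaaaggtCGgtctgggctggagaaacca
Avp: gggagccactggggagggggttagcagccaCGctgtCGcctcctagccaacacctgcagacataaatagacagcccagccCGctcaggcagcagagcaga
Lnpep: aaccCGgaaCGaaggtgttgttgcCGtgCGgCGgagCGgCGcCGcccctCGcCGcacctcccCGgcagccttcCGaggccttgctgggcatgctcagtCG
Over the 250 bases before the start, Lnpep held 29 CG pairs, a number reached by 6.34% of 27457 rat promoters. Oxt held 2, Avp 7, Oxtr and Avpr1a 8 each, and Cd38 held 4. The letters CATAAA, searched on the strand of the gene only, were present in Oxt and Avp and absent from this window in the other 4, and 6.16% of promoters held them. Among genes matched by name, 92.9% of those with 20 or more CG pairs reached a mean of 1 TPM in the BLA, against 35.5% of those with fewer than 5. In the DG these shares were 92.3% and 33.1%. Lnpep was in the first class and Oxt in the second. Cd38 was also in the second, with a median of 5.13 TPM in the BLA and 4.96 TPM in the DG. Avp, Oxtr and Avpr1a fell in neither class, and a link between CG pairs and the levels of the members was not tested.

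Messenger RNA of the ligand Oxt was almost undetected in both regions. In the BLA it was at 0 in all 6 controls, in 2 of 3 stress-low and in 2 of 3 stress-high libraries. The exceptions were stress-low animal 22 with 2.43 expected counts (0.58 TPM) and stress-high animal 7 with 5 counts (0.64 TPM). In the DG, 1 read each was counted in control animal 28, stress-low animal 33 and stress-high animal 20, and the other libraries were at 0. No animal had Oxt reads in both regions. A count of 0 allows up to 3 reads, which is 0.132 to 0.236 CPM (counts scaled to the library total) in BLA and 0.154 to 0.257 CPM in DG libraries, so lower levels were not detectable at this depth.

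Avp was also scarce, and its highest values were in DG controls. In the BLA it reached 0 to 0.59 TPM in controls, 0.28, 0.51 and 0.77 TPM in stress-low, and 0, 0.20 and 0.37 TPM in stress-high libraries, with no library above 3.57 expected counts. In stress-low animal 22 the split count of Avp, 3.57, and that of Oxt, 2.43, were both not whole. These counts complete each other to a whole number. Other identifiers also completed either count, as only 1 library was not whole. Whether reads there were divided between Avp and Oxt therefore cannot be told. In the DG the controls had 0.33, 1.0, 1.75, 2.48 and 5.43 TPM, the stress-low rats 0, 0.33 and 0.85 TPM, and the stress-high rats 0.50, 0.59 and 1.70 TPM. Control animal 32 alone, at 18 counts, gave the highest value, and the groups overlapped. Mean Avp in the DG was 2.20 ± 1.98 TPM in controls (SD, n = 5), 0.393 ± 0.429 in stress-low (n = 3) and 0.930 ± 0.668 in stress-high (n = 3).

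Oxt and Avp in both regions and Oxtr in the DG fell under the filter on low counts and were compared by exact two-sided permutation of mean TPM. None of these 15 tests had an adjusted p under 0.05. The smallest exact p was 0.179 (adjusted p = 0.695), for Avp in the DG between control and stress-low. With 3 against 3 libraries the test cannot go below an exact p of 0.1, and 5 against 3 cannot go below 0.0179. In other tools, Avp in this comparison had a log2 change of -2.6 (SE 1.15) and an adjusted p of 1.0 in DESeq2, and an adjusted p of 0.748 in limma on log2(TPM + 1). Its unadjusted p was 0.024 in DESeq2, 0.031 in that limma fit and 0.018 in edgeR without the filter. In edgeR with the filter, 6.9% of all DG genes tested were under 0.05 before adjustment in this comparison. Beside Avp, the marker genes of hypothalamic neurons had a summed level of 8.34 to 17.8 TPM in DG controls, 8.82 to 14.3 TPM in stress-low and 8.80 to 13.0 TPM in stress-high libraries. Of their 7 genes, Otp, Sim1 and Hcrt had a mean under 0.1 TPM in the DG, and the part of such cells in the Avp values was not tested.

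**Figure D1:**
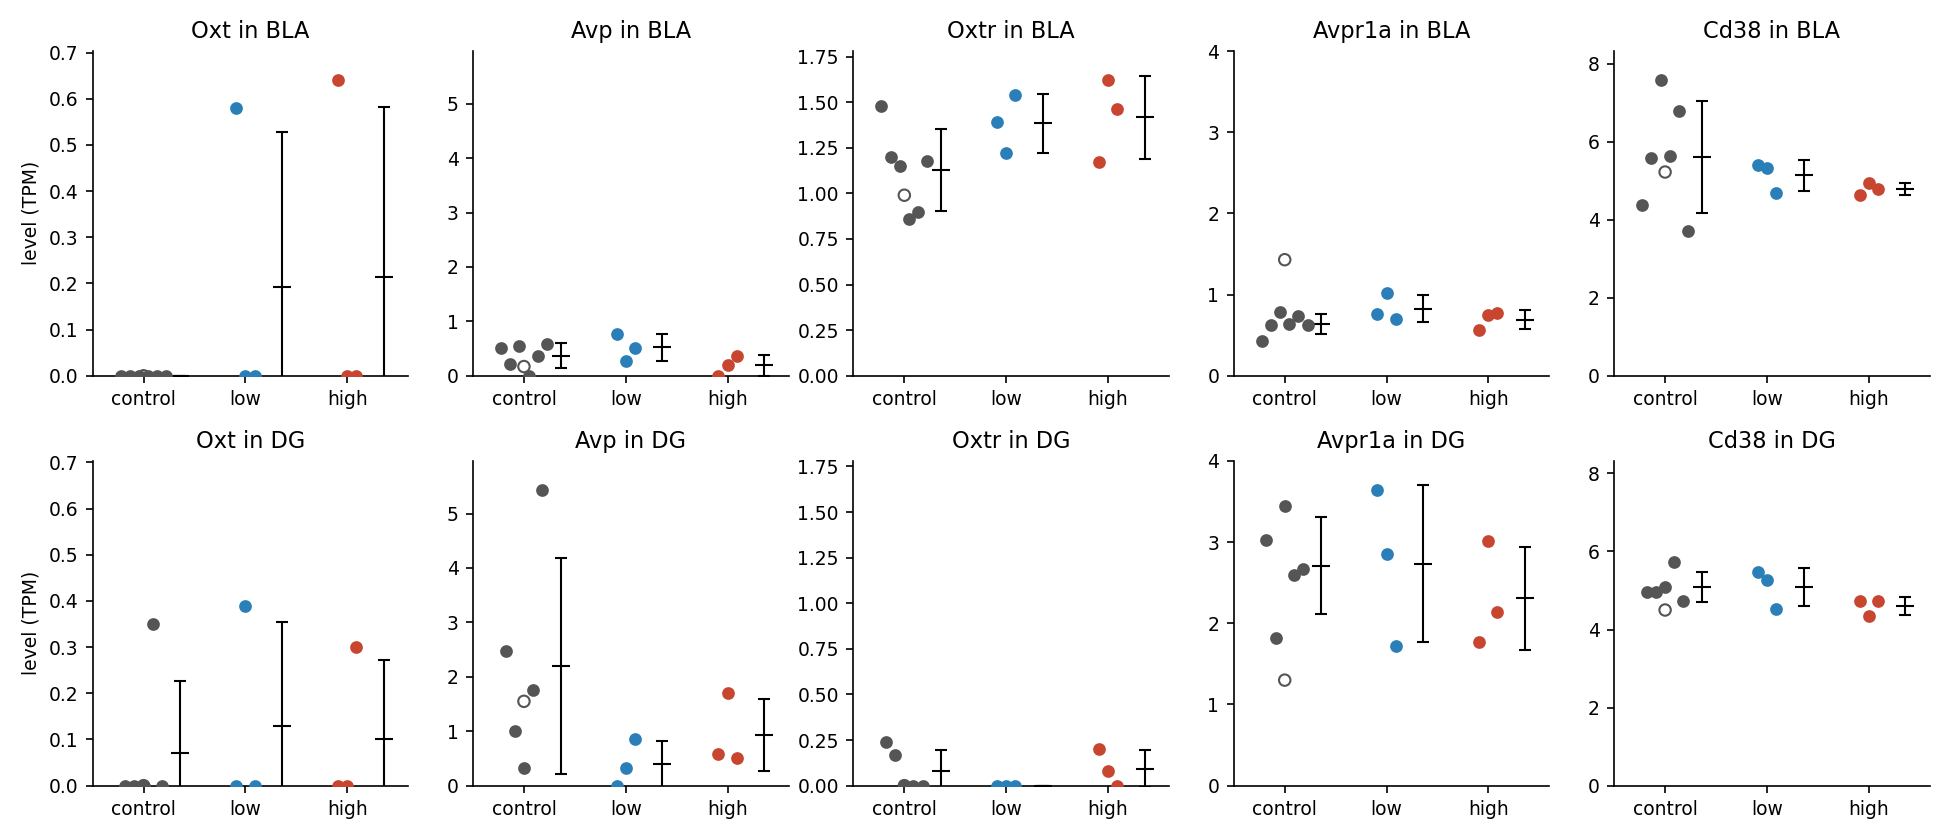
Level in TPM of Oxt, Avp, Oxtr, Avpr1a and Cd38 in each library of the BLA (top) and the DG (bottom), by group; filled points are libraries used, open points the left-out control, and bars are the mean and SD, drawn down to 0 at most. Oxtr lay between 0.86 and 1.62 TPM in the BLA and at or under 0.24 TPM in the DG, Avpr1a had the opposite order, and the groups overlapped in every panel.

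The oxytocin receptor gene was present in the BLA at a low, even level and near 0 in the DG. Oxtr in BLA controls was 0.86, 0.90, 1.15, 1.18, 1.20 and 1.48 TPM, and in stress-low animals it was 1.22, 1.39 and 1.54 TPM. Stress-high animals had 1.17, 1.46 and 1.62 TPM. The groups overlapped, and the counts behind these values were only 11 to 22 per library. The log2 change from control was 0.26 (SE 0.26) in stress-low and 0.32 (SE 0.26) in stress-high, and 0.06 (SE 0.29) from stress-low to stress-high. In the DG, 2 reads were counted in each of 2 controls and in 1 stress-high library, 1 read in another, and 0 in the other 7, among them all stress-low libraries. No single DG library was above 3 counts, so no fold is given.

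Avpr1a, the main brain receptor of vasopressin, was the more abundant receptor in the DG. Its BLA levels were 0.43 to 0.79 TPM in controls (median 0.64), 0.70, 0.76 and 1.02 TPM in stress-low, and 0.56, 0.75 and 0.77 TPM in stress-high libraries. DG levels were 1.82, 2.6, 2.67, 3.03 and 3.44 TPM in controls, 1.72, 2.85 and 3.64 TPM in stress-low, and 1.77, 2.14 and 3.01 TPM in stress-high libraries. The groups overlapped in both regions. In the BLA the log2 change was 0.32 (SE 0.27) from control to stress-low and -0.23 (SE 0.31) from stress-low to stress-high. In the DG these were 0.06 (SE 0.27) and -0.25 (SE 0.30). The difference between the regions in the stress-low to stress-high change was 0.005 (SE 0.31).

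The groups overlapped in Cd38 in both regions. BLA controls ranged from 3.72 to 7.57 TPM with a median of 5.6, stress-low libraries had 4.67, 5.32 and 5.41 TPM, and stress-high libraries 4.64, 4.78 and 4.93 TPM. In the DG the controls ranged from 4.73 to 5.73 TPM with a median of 4.96, stress-low libraries had 4.53, 5.26 and 5.47 TPM, and stress-high libraries 4.34, 4.73 and 4.74 TPM. The stress-high libraries were narrow and lay inside or near the range of the others. From control to stress-high the BLA log2 change was -0.22 (SE 0.17) and the DG one -0.13 (SE 0.11), and from stress-low to stress-high it was -0.05 (SE 0.20) and -0.15 (SE 0.12).

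Apart from LNPEP, 3 members passed the filter in the BLA (Oxtr, Avpr1a and Cd38) and 2 in the DG (Avpr1a and Cd38), and edgeR's quasi-likelihood test called none of them in any comparison. The counts were 0 at an adjusted p under 0.05 and 0 at an unadjusted p under 0.05, and the lowest adjusted p was 0.971. DESeq2 and limma also called 0 after adjustment. This stands against a background of 0% of 15230 BLA genes and 0% of 14080 DG genes called after adjustment. Before adjustment the background was 1.98% of BLA genes from stress-low to stress-high, 2.75% from control to stress-low and 2.57% from control to stress-high. In the DG these shares were 3.12%, 6.9% and 2.19%. For the difference between regions, 0% of 15453 genes were called after adjustment and 2% before it. The median standard error of a log2 change from stress-low to stress-high was 0.13 (BLA) and 0.12 (DG), smaller than that of the scarce receptors.

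The order of levels differed between the regions. Over the 9 animals with both regions in use, Oxtr averaged 1.29 ± 0.28 TPM in the BLA and 0.050 ± 0.081 TPM in the DG (SD, n = 9), and it was lower in the DG in 9 of 9 animals. Avpr1a averaged 0.663 ± 0.114 TPM in the BLA and 2.53 ± 0.73 TPM in the DG and was higher in the DG in 9 of 9. For both genes the exact two-sided sign-flip permutation p was 0.0039, the smallest that 9 animals allow, and 0.0098 after adjustment over 5 genes. Avp was higher in the DG in 8 of 9 animals, by 1.02 TPM on average (exact permutation p = 0.0625, adjusted 0.104), and by 1.13 TPM in 10 of 11 animals when the left-out libraries were included (adjusted 0.026). Cd38 differed by -0.27 TPM (exact permutation p = 0.402) and Oxt by -0.063 TPM (exact permutation p = 0.75). The libraries of the regions also differed in the length that RSEM subtracted from each gene before scaling, 50 bases in every BLA library and 261 to 274 bases in the DG, which weighs most on short genes such as Oxt and Avp. The region and this difference between libraries cannot be told apart in these levels.

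**Figure D2:**
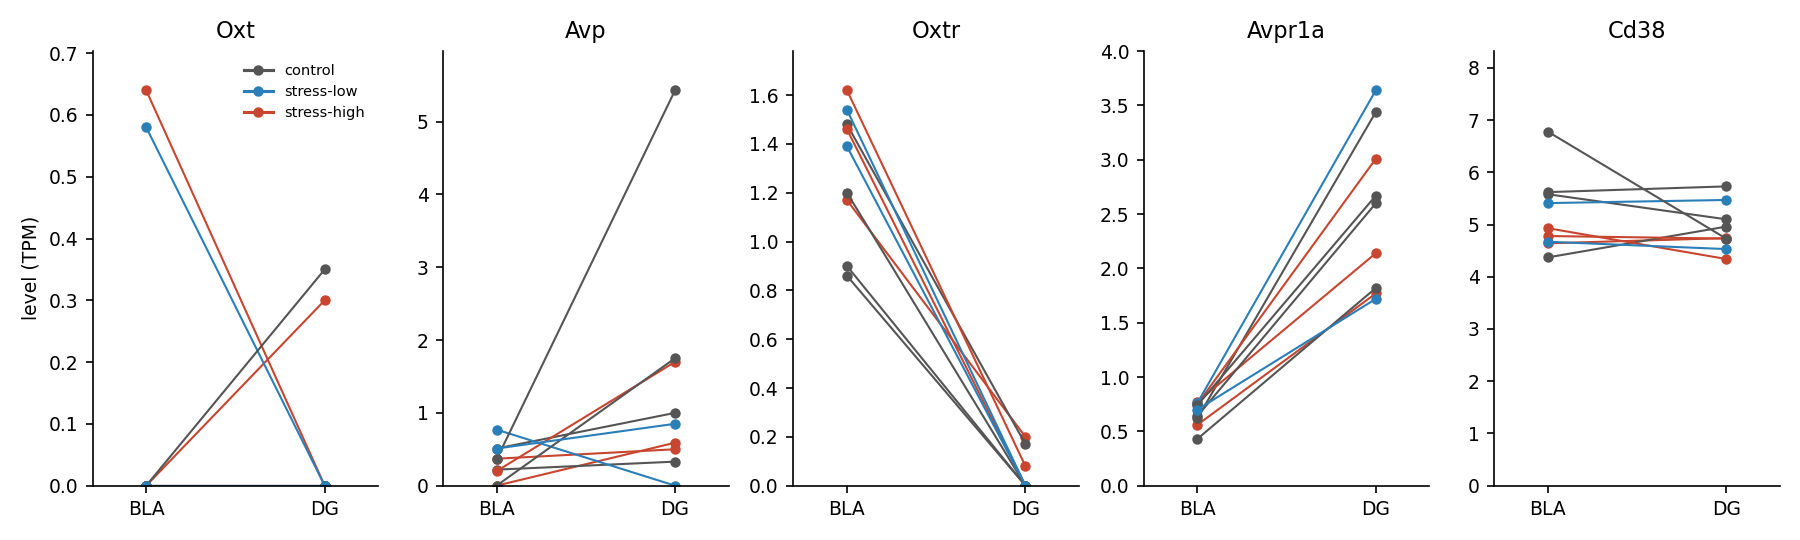
Level in TPM of the 5 tested genes in the BLA and the DG of the 9 animals with both regions in use, 1 line per animal, colored by group. All 9 lines fall for Oxtr and all 9 rise for Avpr1a, while those of Cd38 cross.

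In the BLA kept libraries the median level fell from LNPEP at 8.30 TPM to Cd38 at 5.13, Oxtr at 1.21, Avpr1a at 0.72, Avp at 0.365 and Oxt at 0. The ranges of LNPEP and Cd38 overlapped, as did those of Oxtr and Avpr1a, and those of Avpr1a and Avp. In the DG the order was LNPEP at 12.9 TPM, Cd38 at 4.96, Avpr1a at 2.67, Avp at 0.85, and Oxtr and Oxt at 0. There LNPEP and Cd38 did not overlap, nor did Cd38 and Avpr1a, and Avpr1a and Avp did.

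LNPEP, the oxytocinase gene (ENSRNOG00000047387), was the member selected on its group differences. In the BLA the stress-low rats had 4.71, 6.03 and 6.09 TPM and the stress-high rats had 8.08, 8.51 and 8.65 TPM. Controls had 6.59, 7.15, 9.40, 9.72, 9.83 and 11.1 TPM. Every stress-low library lay below every control and every stress-high library. Of the 15230 BLA genes tested, 1.18% had all stress-low libraries below all stress-high ones, 0.289% below all controls and 0.0919% below both, and as LNPEP was chosen on these values nothing is read from this. The nearest values on each side were 6.09 TPM in stress-low animal 34 and 6.59 TPM in control animal 32. On the log2 scale the LNPEP difference was -0.71 (SE 0.16) from control to stress-low and 0.62 (SE 0.18) from stress-low to stress-high, a fold of 1.54. From control to stress-high the value was -0.09 (SE 0.16).

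In the DG the stress-low mean was the highest of the 3 groups, where in the BLA it was the lowest. The stress-low rats had 13.2, 13.4 and 16.8 TPM, the stress-high rats 10.5, 10.9 and 13.8 TPM, and the controls 10.3, 12.0, 12.1, 13.0 and 13.7 TPM. These groups overlapped. The log2 values were 0.25 (SE 0.12) from control to stress-low, -0.30 (SE 0.14) from stress-low to stress-high and -0.05 (SE 0.12) from control to stress-high. The stress-low to stress-high value of the DG minus that of the BLA was -0.90 (SE 0.24). That fit did not pair the libraries of the same animal. In it, region and the unlike subtracted length of the libraries, given above, cannot be told apart. With the left-out DG control of animal 35, at 3.49 TPM, the control to stress-low value was 0.42 (SE 0.26) and the control to stress-high value 0.12 (SE 0.26).

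**Figure D3:**
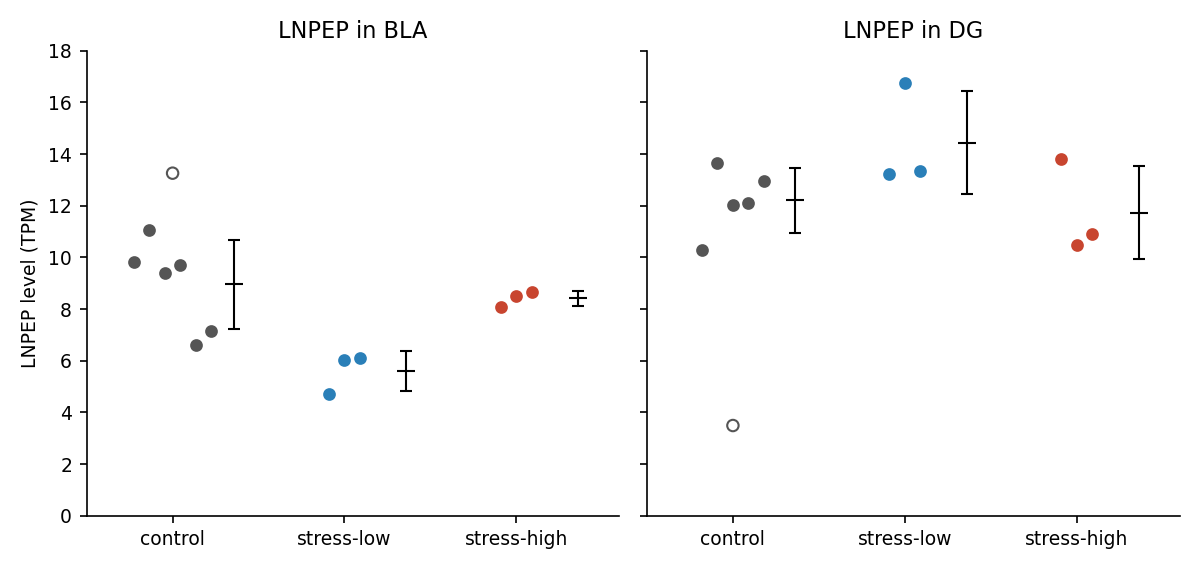
LNPEP level in TPM in each library of the BLA (left) and the DG (right), by group; filled points are libraries used, open points the left-out control of each region, and bars the mean and SD. In the BLA the 3 stress-low libraries sit at 4.71 to 6.09 TPM, below all other libraries, and in the DG the groups overlap.

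The LNPEP counts themselves were estimates of shared reads. RSEM divides a read that matches more than 1 gene among them, which leaves counts that are not whole. LNPEP had such counts in 13 of 13 BLA libraries and in 7 DG libraries. Of all identifiers, 18.8% to 26.9% had such counts in a BLA library and 5.67% to 6.38% in a DG library. Adding the counts of 1 other identifier, ENSRNOG00000013082, which has no name in the files, gave a whole number within 0.02 in 10 of the 13 BLA libraries and in 7 of the 7 DG libraries. The next best identifier did so in 5 and 3. Avpr1a, Avp and Oxt had a count that was not whole in 1 BLA library each, and Oxtr and Cd38 in none.

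The division between these identifiers in the BLA differed from library to library. LNPEP was given 28.0%, 35.2% and 42.0% of their summed counts in the stress-low libraries and 47.2%, 47.2% and 55.3% in the stress-high libraries. In controls its share was 31.9% to 88.6%, with a median of 55.2%. The stress-low and stress-high libraries did not overlap in this share, the controls spanned the whole stress-high range, and control animal 32 lay among the stress-low libraries. The share is made from the counts on which LNPEP was chosen. In the DG, LNPEP received 94.3% to 100% of the summed counts in every kept library. Region and the differences between its libraries, in subtracted length and in split counts, cannot be told apart in this share. The unnamed identifier had 1.46 to 14.4 TPM in the BLA and 0 to 0.81 TPM in the DG. Across the 12 BLA libraries its level and that of LNPEP had a Pearson correlation of -0.65, on log2(TPM + 1) values that come from the same division of reads.

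The sum of both was more alike between groups than LNPEP alone. In CPM, the BLA sum was 30.4, 34.1 and 34.8 in stress-low, 32.3, 35.8 and 38.0 in stress-high, and 26.4 to 41.2 in control libraries. These ranges overlapped in all 3 comparisons. Fitted as 1 gene, the sum had a log2 change of 0.11 (SE 0.14) from stress-low to stress-high, -0.06 (SE 0.12) from control to stress-low and 0.05 (SE 0.12) from control to stress-high. The stress-low and stress-high BLA libraries did not overlap in LNPEP or in its share, and they did overlap in the sum. Which identifier the shared reads came from was not tested.

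In the DG the sum kept the values of LNPEP, with 25.7, 26.4 and 31.9 CPM in stress-low, 21.0, 21.2 and 26.9 in stress-high, and 20.3 to 26.7 in control libraries. Its log2 change was -0.29 (SE 0.13) from stress-low to stress-high and 0.24 (SE 0.12) from control to stress-low. The difference between the regions was -0.38 (SE 0.20) for the sum, against -0.90 for LNPEP alone. Region and the unlike quantification of its libraries cannot be told apart in these differences. The sum was fitted after the values had been seen.

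**Figure D4:**
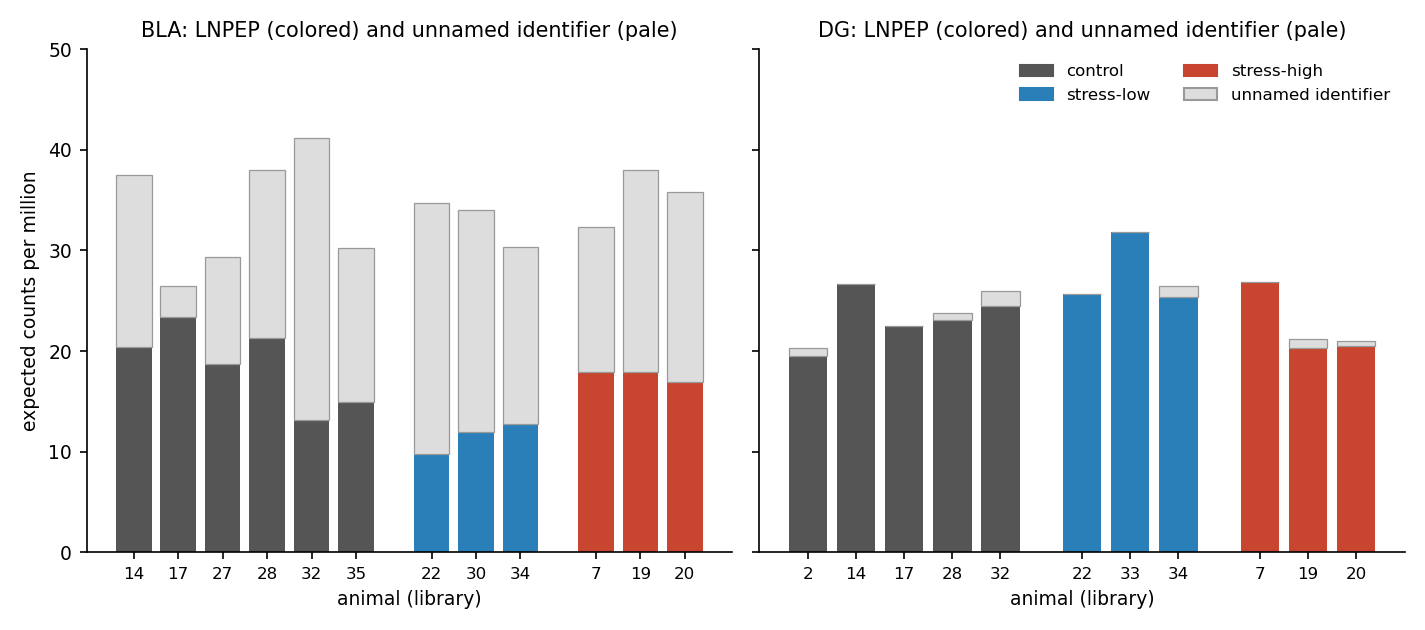
Expected counts scaled to the library total (CPM) given to LNPEP (colored by group) and to the unnamed identifier that shares its reads (pale) in each library used, BLA left and DG right, labelled by animal. In the BLA the colored part is shortest in the stress-low libraries while whole bars span 26.4 to 41.2 CPM, and in the DG the pale part is small or absent.

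**Figure D5:**
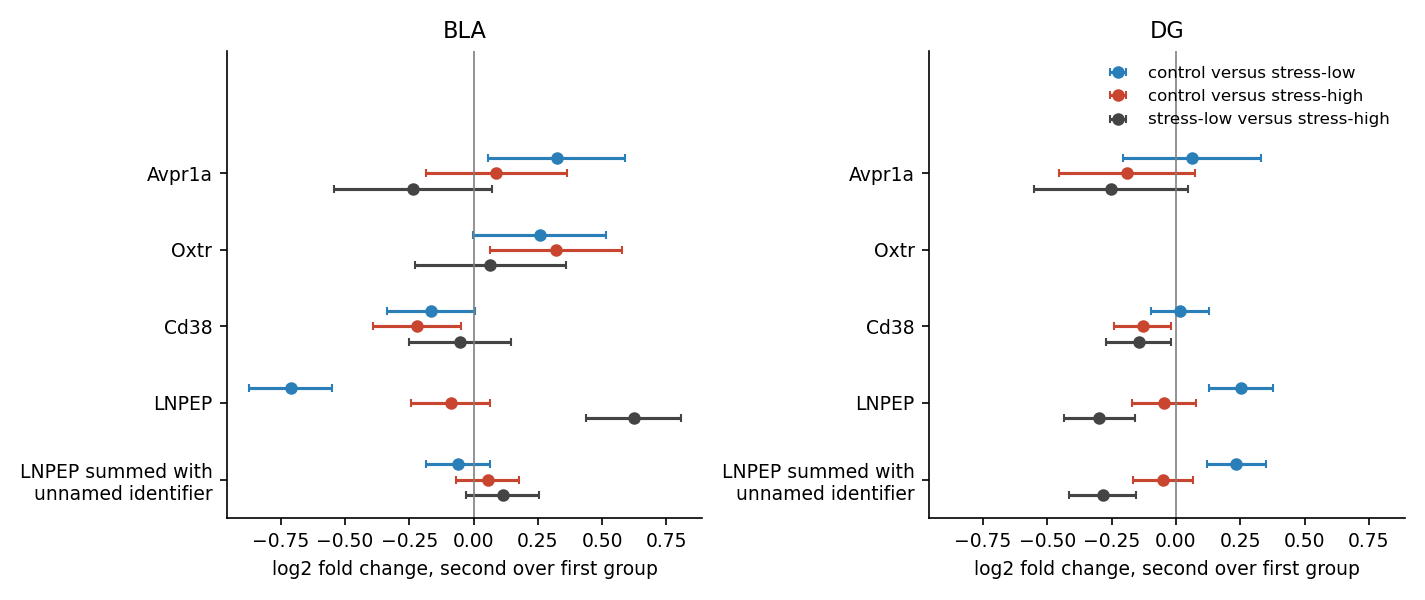
Log2 fold change (points) and standard error (bars) of the members that passed the count filter, and of LNPEP summed with the unnamed identifier, for the 3 comparisons in the BLA (left) and the DG (right, where Oxtr was under the filter). In the BLA the values of -0.71 and 0.62 for LNPEP become -0.06 and 0.11 for the sum.

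Around these members, 60 other genes of the pathway were listed, from precursor processing and Gq signaling to vesicle partners of oxytocinase, and edgeR tested 53 of their identifiers for the BLA and 52 for the DG. After adjustment edgeR called 0 of them in every comparison. Before adjustment 1 was higher and 2 were lower from control to stress-low in each region, and 1 was higher and 1 lower from control to stress-high in the BLA against 0 in the DG. From stress-low to stress-high 1 was higher in each region. Of all genes tested, 2.75% (BLA) and 6.9% (DG) passed before adjustment from control to stress-low. These shares were 2.57% and 2.19% from control to stress-high, and 1.98% and 3.12% from stress-low to stress-high. With counts this small, nothing is read from the listed genes. Their median log2 change lay between -0.02 and 0.01 in all 6 comparisons, and that of all genes tested between -0.004 and 0.001.

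Among those with the smallest p, Enpep, an aminopeptidase of the same family that trims angiotensin, had a log2 difference of -0.66 (SE 0.24) from control to stress-high in the BLA and -0.56 (SE 0.24) from control to stress-low. It was scarce, at 0.38 to 1.06 TPM. Trpm2, a calcium channel opened by a product of CD38, had 0.19 (SE 0.09) and 0.22 (SE 0.09) in the same comparisons and 0.23 (SE 0.09) from stress-low to stress-high in the DG. The neuronal calcium-dependent kinase CAMK2A had a BLA value of -0.19 (SE 0.08) and a DG value of -0.16 (SE 0.07) from control to stress-low. In the DG this comparison also gave -0.15 (SE 0.06) for Gna11, a Gq family subunit, and 0.15 (SE 0.07) for the insulin receptor Insr. Sort1, a sorting receptor of the vesicles that carry oxytocinase, had 0.17 (SE 0.08) from stress-low to stress-high in the BLA. All of these had an adjusted p of at least 0.718 in edgeR. The other genes among the 3 smallest p of a comparison were PCSK1N, Agt, Rnpep, Tbc1d4, Pam, Prkcb and Mapk3, whose unadjusted p was above 0.05 throughout. The widest of their values was -1.48 (SE 0.71), from control to stress-high in the BLA. It belonged to only 1 of the 2 identifiers of the prohormone convertase inhibitor gene PCSK1N. Their summed level was 375 to 686 TPM in the BLA, and the fit of the other identifier is not given here.

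The remaining vasopressin receptors followed the same pattern of low levels. Avpr2, the kidney type receptor, was at 0.41 to 2.11 TPM in the BLA and 1.65 to 3.15 TPM in the DG, and its log2 difference from stress-low to stress-high was -0.93 (SE 0.52) in BLA and -0.09 (SE 0.29) in DG libraries. Avpr1b, the pituitary type receptor, had 2 identifiers whose summed level was 0.06 to 0.64 TPM in the BLA and 0 to 0.10 TPM in the DG. Its BLA level was low in every group, and it was near the count floor in the DG.

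The genes whose level varied most like a member across libraries were looked up among genes with a mean of at least 1 TPM. Over 12 BLA libraries LNPEP was nearest to 5S_rRNA (Pearson r = 0.93), Ccdc13 (0.79) and Prkd2 (0.75). Over 11 DG libraries it was nearest to G2E3 (0.96), Ipo7 (0.96) and Stag2 (0.96). Oxtr in the BLA was nearest to Gltpd1 (0.88), Plxdc1 (0.84) and Utp23 (0.82). In the DG, Avpr1a was nearest to RGD1310507 (0.90), Stard10 (0.89) and Ndufa8 (0.87), and Avp to Gltscr1 (0.93), Synpo (0.93) and Grasp (0.89). Cd38 was nearest to Sowahc (0.91), Gramd1c (0.89) and Zfp326 (0.88) in the BLA and to Phlpp2 (0.88), Tnfaip1 (0.87) and Polr1b (0.84) in the DG. Each is the top of 14422 BLA or 13565 DG genes, which share depth and tissue composition within a library.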

How the data were processed

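Alignment to the Rn5 genome (STAR 2.6.0a, Ensembl genes) and quantification (RSEM 1.3.1) were done by the authors, per the study's methods and the submitters' processing notes. For each library the authors deposited expected counts, which are RSEM estimates of the reads of a gene, and TPM, together with lengths and FPKM. The FPKM values were not used. EBSeq, the authors' test, was not installed here.

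Expected counts were rounded and tested by quasi-likelihood in edgeR 4.0.16 (TMM factors, a minimum count of 10 in filterByExpr, 3 group means fitted per region, Benjamini-Hochberg adjustment over all genes tested, threshold 0.05). A region difference was tested in 1 fit with 6 means, without pairing the libraries of the same animal. Members under the filter were compared by exact permutation of TPM. The left-out control of each region was the library farthest from the median of the first principal component of log2(TPM + 1). DESeq2 1.42.0, limma 3.58.1, RLE factors, other filters and pseudocounts, all mapped libraries, a block for the title number and leaving out each library were alternatives. The region comparison of levels and the summed LNPEP fit were chosen after seeing the data. Tests were tried on simulated counts.

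The members and lists were chosen with earlier results of these data known. Named were all 6 members, pathway genes with an adjusted p under 0.05 and the 3 with the smallest p per comparison. Promoters are from RefSeq GRCr8, matched by symbol for 6 of 6 members. Nothing states whether the libraries of a group were prepared separately beyond 1 animal each.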

Additional observations from a re-analysis of the deposited data

Results flagged for a closer look

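Of 11 groups of control libraries examined for the members, 1 had a value flagged as far from the rest by the gap to its neighbor. It was Oxt in DG controls, where animal 28 had 0.35 TPM from 1 read and the other 4 were at 0. The rule always flags a single value above 0 in such a group. A chance rate of about 1 in 20 groups therefore does not apply, and nothing is read from it. In the BLA, the left-out control of animal 2 lay above all kept controls in Avpr1a, at 1.43 TPM, and in LNPEP, at 13.26 TPM. The library of animal 2 in the BLA entered no main comparison.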

How the results depend on the processing

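LNPEP was left out of the count of calls over settings. None of the other members was called in any of 152 fits over 35 settings. Their lowest adjusted p was 0.748, in limma on log2(TPM + 1). With the left-out libraries included, the excess of Avp in the DG over the BLA, 1.13 TPM, passed the threshold. Some values changed sign. From control to stress-high in the BLA, Avpr1a was -0.10 with all mapped libraries. From control to stress-low in the DG, limma gave -0.0086 at a pseudocount of 1, with or without a filter, and -0.0202 at 0.1 for Avpr1a, and -0.0033 and -0.0042 for Cd38. For the region difference of Avpr1a, DESeq2 gave -0.0003, RLE factors -0.0051 and the animal block -0.0929. Leaving out 1 BLA library gave -0.0016 to 0.18 for Avpr1a from control to stress-high and, from stress-low to stress-high, -0.0907 to 0.015 for Cd38 and -0.0654 to 0.19 for Oxtr in the BLA. In the DG it gave -0.21 to 0.29 for Avpr1a and -0.0479 to 0.0914 for Cd38 from control to stress-low, and -0.51 to 0.014 for Avpr1a from stress-low to stress-high, where animal 22 turned the sign. The region difference of Avpr1a was -0.25 to 0.28. The cause was not tested. LNPEP was chosen on its group differences, so its values are a description and nothing is read from their spread. With 1 library left out, it was 0.53 to 0.72 from stress-low to stress-high in the BLA and -0.45 to -0.18 in the DG. From control to stress-high in the DG it was -0.20 to 0.02. Summed with the unnamed identifier, the stress-low to stress-high value was 0.11 (SE 0.14) in the BLA and -0.29 (SE 0.13) in the DG.

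The numbers in the titles do not pair the libraries. Same-numbered libraries had correlations over 0.1 in 0 of 13 BLA pairs and 1 of 14 DG pairs, and 2 of 12 and 2 of 11 libraries resembled their own number most. With a replicate block on that number 0 members were called. In that fit LNPEP was 0.62 (BLA) and -0.30 (DG) from stress-low to stress-high, as a description only. Counts of 0 to 22 per library limit what can be seen for Oxt, Avp and Oxtr.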
